A study of Homo sapiens with 32 samples.

Results

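PF382, a human line of T-cell acute lymphoblastic leukemia, was exposed to azacitidine and its messenger RNA was set against that of PF382 cells without the drug. All 8 PF382 libraries of the 32 in the series were used: 6 with azacitidine and 2 without, chosen by the cell line and treatment labels. The 6 had azacitidine at 125, 250 or 500 nM with 1.25 nM romidepsin, or at the same 3 doses alone. The other 2 were 1.25 nM romidepsin alone and untreated cells. Each condition had 1 library from 1 established line, and the comparison matched libraries on whether romidepsin had been given. Exposure lasted 96 hours in cells in logarithmic growth, with romidepsin at the start and azacitidine every 24 hours, per the labels' protocols. The 3 other T-cell lines, TLOm1, HH and H9, had libraries of the same kinds. Azacitidine was at 125, 250 and 500 nM in TLOm1 and at 50, 125 and 250 nM in HH and H9. Romidepsin was at 1 nM in TLOm1 and H9, and in HH at 1.25 nM in the combinations and 1 nM alone, so that matching on romidepsin mixes its doses in HH.

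Azacitidine is a cytidine analogue that cells carry in, phosphorylate and build into RNA and, after reduction, into DNA. In DNA it traps DNA methyltransferases, the enzymes that copy methyl groups onto CpG dinucleotides after replication, so that methylation is lost as cells divide. Promoters that are held silent by CpG methylation in somatic cells include those of many germline genes, of cancer testis antigens on chromosome X and of genes of other lineages. Romidepsin inhibits histone deacetylases. T-cell acute lymphoblastic leukemia arises from thymocytes arrested in development, and such cells often express the recombinases RAG1 and RAG2, CD1 molecules and terminal transferase.

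Total counts of the PF382 libraries ran from 21535764 to 25535937, against 16175077 to 32496676 over the series, and 17801 of 25559 gene symbols were tested. A level below is counts scaled to the library total (CPM), and the floor of 3 counts was 0.117 to 0.139 CPM in these libraries. CPM is not corrected for gene length, so levels are compared between libraries and not between genes. The T-cell markers CD3D, CD3E and LCK were read in every library: CD3D was at 345, 368, 362 and 349 CPM with romidepsin and 352, 348, 379.7 and 447 CPM without it at 0, 125, 250 and 500 nM, and CD3E at 542, 531, 525 and 442 CPM with romidepsin and 602, 562, 608 and 663 CPM without it. None of these 3 passed the test of the azacitidine effect (adjusted p = 0.805 for CD3D, 0.657 for CD3E and 0.803 for LCK). Markers of other lineages were read too. The summed level of 11 B-cell markers was 20.3 to 34.3 CPM with azacitidine and 10.8 to 12.4 CPM without it. That of 14 fibroblast markers was 38.8 to 293 CPM with azacitidine and 35 to 52.5 CPM without it.

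An azacitidine effect is a log2 fold change of azacitidine over none, given ± its standard error. It is 1 value fitted over the doses and matched on romidepsin state. It is not the mean of the changes at each dose. The gene PNMA5, for example, had changes of 3.56, 7.22 and 9.12 at 125, 250 and 500 nM and an effect of 7.91. Calls were made by edgeR's quasi-likelihood test, at p under 0.05 after Benjamini-Hochberg adjustment over all genes tested. The spread behind the test was pooled over the 32 libraries of 4 lines, since PF382 had no second library of any condition. The p-values therefore do not measure the spread between PF382 cultures, and in the fit over all doses the spread includes the differences between doses. In these bulk samples fewer cells of a kind and less RNA per cell cannot be told apart.

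Over all doses, azacitidine raised 1058 genes and lowered 425 in PF382, 8.33% of those tested (5.94% higher, 2.39% lower). Of the raised genes 688 changed by at least 2-fold, as did 92 of the lowered ones, and the median change of all genes tested was 0.04. All 6 azacitidine libraries lay above both libraries without it for 2661 genes (14.9%) and below both for 1304 (7.33%). The count rose with the dose. At 125 nM 662 genes were higher and 297 lower (5.39%; 3.72% higher, 1.67% lower). At 250 nM the counts were 1839 and 741 (14.5%; 10.3% and 4.16%), and at 500 nM 3641 and 2119 (32.4%; 20.5% and 11.9%). The 3 doses share the untreated and the romidepsin-alone library. A separate test of the slope among the 6 azacitidine libraries called 1975 genes higher and 1020 lower with each doubling of the dose (16.8%; 11.1% higher, 5.73% lower).

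**Figure D1:**
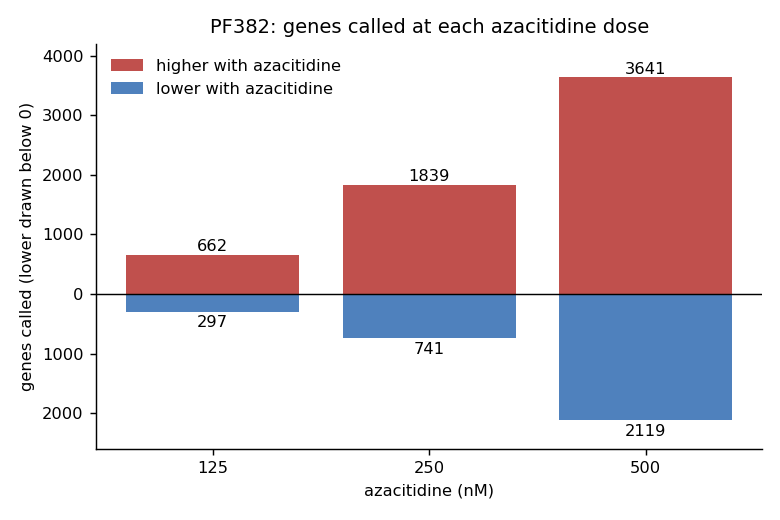
Number of genes called higher and lower in PF382 at each azacitidine dose (nM), each dose against no azacitidine and matched on romidepsin. The counts grew from 662 higher and 297 lower at 125 nM through 1839 and 741 at 250 nM to 3641 and 2119 at 500 nM.

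These calls rest heavily on the 2 libraries without azacitidine. Without the romidepsin-alone library 116 genes were called, of which 109 were among the 1483 (7.35%), and without the untreated library 505, of which 443 were (29.9%). Of the 1483 called genes 1 had the other sign in each of these 2 fits, and each fit leaves 1 PF382 library without azacitidine. Over all doses each fit then takes the effect from 1 romidepsin state, since the effect is matched on romidepsin. Without the romidepsin-alone library, azacitidine alone is set against untreated cells, and the combinations add only to the spread. Without the untreated library, the combinations are set against romidepsin alone. A call that ends there is lost with the comparison of a whole state, not with 1 library only. Leaving out an azacitidine library gave 1058 to 1844 calls. Of 119 called genes that a fixed rule names, 12 kept their call in each of the 8 fits with a library left out, 99 lost it without the romidepsin-alone library, 71 without the untreated library and 35 without an azacitidine library. The 500 nM count was 2546 to 5495 in such fits, the lowest without the romidepsin-alone library, and the 125 nM count of 959 was 335 without the combination at 125 nM, 349 without azacitidine alone at 125 nM and 415 without romidepsin alone, where 203 were higher and 212 lower. The slope count of 2995 was 936 without the combination at 500 nM, 1517 without the combination at 125 nM and 1844 without azacitidine alone at 125 nM.

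The 12 genes whose calls held in each fit were found in both directions and in several groups. DTX1, a ubiquitin ligase of the Deltex family and a target of Notch signalling, was at 139, 388, 497 and 372 CPM with romidepsin and 217, 502, 623 and 591 CPM without it, at 0, 125, 250 and 500 nM. All 6 azacitidine libraries lay above both others (log2 fold change 1.45 ± 0.18, adjusted p = 3.86e-05). TBK1, a kinase that activates interferon regulatory factors, was at 6.13, 12.2, 11.8 and 15.8 CPM with romidepsin and 6.02, 12.7, 12.6 and 11 CPM without it. All 6 azacitidine libraries lay above both others, with little difference between doses (log2 fold change 1.01 ± 0.14, adjusted p = 7.59e-05). RAPSN, which clusters acetylcholine receptors at the neuromuscular junction, was at 0.232, 4.56, 9.43 and 6.26 CPM with romidepsin and 0.175, 8.85, 12 and 9.77 CPM without it. Its 2 libraries without azacitidine together held 9 counts, and all 6 others lay far above them (log2 fold change 5.28 ± 0.65, adjusted p = 2.41e-05). TP53I3, a quinone oxidoreductase induced by p53, was at 1.58, 5.06, 5.12 and 5.52 CPM with romidepsin and 1.18, 4.35, 5.48 and 5.1 CPM without it, with its level nearly the same at the 3 doses (log2 fold change 1.85 ± 0.25, adjusted p = 8.51e-05).

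ISLR, a secreted leucine-rich repeat protein, held 736 counts in the 6 azacitidine libraries and 3 in the other 2, 75 times as high (95% interval 25.6 to 364). ADAMTS4, an aggrecan-cleaving protease, held 593 counts against 3, 60.4 times as high (95% interval 20.6 to 294), and SHROOM3, an actin-binding protein of epithelia, 252 against 1, 77 times as high (95% interval 13.7 to 3054). These intervals cover counting error only. Among the lowered genes, GCET2, the older symbol of GCSAM, a germinal centre signalling protein, was at 12.3, 3.84, 2.99 and 1.99 CPM with romidepsin and 15.7, 4.78, 3.35 and 0.838 CPM without it (log2 fold change -2.27 ± 0.35, adjusted p = 3.19e-04). C1orf51, the older symbol of the circadian repressor CIART, was at 8.17, 2.32, 2.3 and 2.36 CPM with romidepsin and 14.4, 6.77, 3.44 and 1.99 CPM without it (log2 fold change -1.86 ± 0.29, adjusted p = 3.54e-04). Both were below the untreated and the romidepsin-alone library at every dose. IFITM2, HLA-B and BNIP3, described with their groups below, complete the 12.

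**Figure D2:**
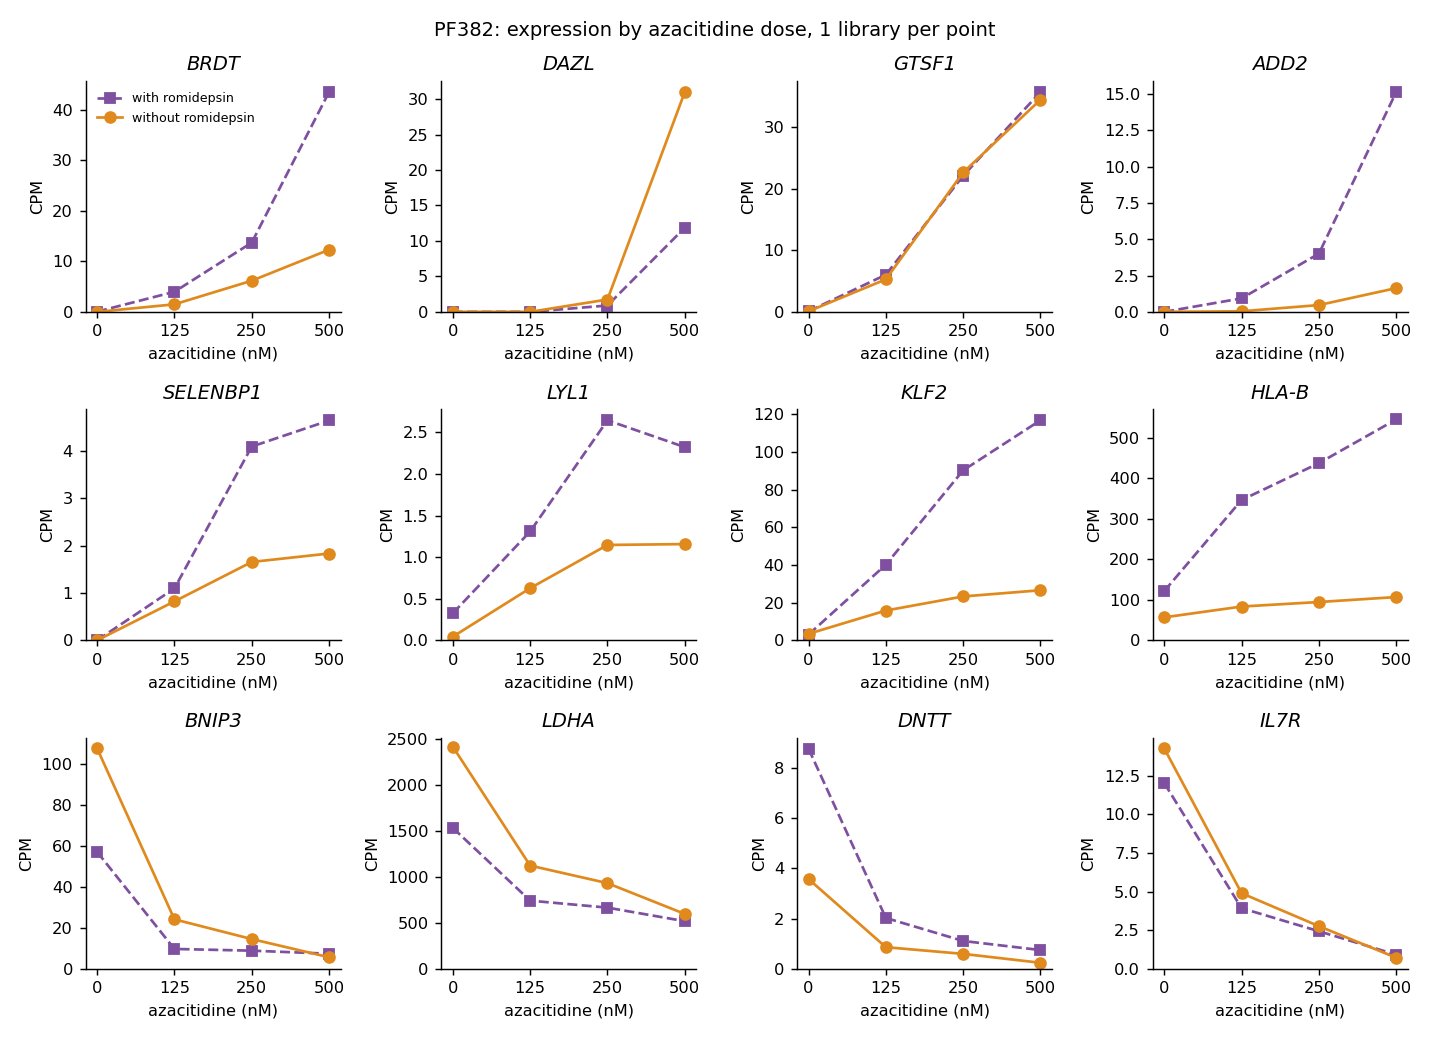
Level of 12 named genes in PF382 (CPM) against the azacitidine dose (nM), with romidepsin as squares and without it as circles, 1 library per point. BRDT, DAZL and GTSF1 started at or near 0 CPM, and BNIP3, DNTT and IL7R fell at the lowest dose and further at higher doses in both romidepsin states.

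Members of the lists of germline genes and cancer testis antigens made up 5 of the 12 largest increases. The rule asks for a mean of at least 1 CPM. Many genes of these lists are silent in most adult tissues outside the testis. The X-linked list also holds PNMA5 and PNMA3, of the paraneoplastic antigen family. Of 46 X-linked cancer testis antigens tested (82 in the files) 4 rose and 0 fell over all doses, against 5.94% of all genes higher. DESeq2 called 20 of them higher over all doses and limma-voom 1, and the count was 0 without the romidepsin-alone library and 0 without the untreated one. Their calls grew with the dose, from 6 at 125 nM through 29 at 250 nM to 39 at 500 nM. Of all genes tested 3.72%, 10.3% and 20.5% were higher at these doses. With each doubling of the dose 36 rose, against 11.1% of all genes. The summed level of the list was 12.6, 95.8 and 342 CPM at 125, 250 and 500 nM with romidepsin and 10, 83.9 and 388 CPM without it. It was 1.53 CPM with romidepsin alone and 1.18 CPM in untreated cells. The 500 nM count of 39 was 34 to 39 with 1 library left out. In untreated cells 0 of all 82 members, tested or not, reached 10 counts, and 37 did so with azacitidine alone at 500 nM.

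PNMA5, of the paraneoplastic antigen family, was at 0.232, 3.38, 43.3 and 131 CPM with romidepsin and 0.262, 2.7, 33.6 and 166 CPM without it at 0, 125, 250 and 500 nM. The level at 500 nM was several times that at 250 nM in both states (log2 fold change 7.91 ± 2.48, adjusted p = 0.0499). CTAG2, which encodes the antigen LAGE-1 and has near-identical copies between which reads can be split, had 0, 12, 120 and 194 counts with romidepsin and 0, 23, 140 and 295 counts without it. Over the 6 azacitidine libraries it was at least 79.9-fold higher than the floor of 3 counts over the 2 others (adjusted p = 0.0312). PAGE5 was at 0.0929, 2.41, 9.9 and 30.6 CPM with romidepsin and 0.0436, 2.27, 12.8 and 38.6 CPM without it and was 239.9 times as high (95% interval 82 to 1164) with azacitidine. PNMA3 was at 0.0929, 0.886, 2.3 and 3.11 CPM with romidepsin and 0, 0.666, 1.15 and 4.15 CPM without it (adjusted p = 0.00228). The calls of PNMA5, CTAG2, PAGE5 and PNMA3 ended without the romidepsin-alone library (adjusted p = 0.0552 to 0.412). PNMA5, CTAG2, PAGE5 and PNMA3 lost the calls in the fit without the untreated library (adjusted p = 0.0663 to 0.265). PNMA5, CTAG2 and PAGE5 further lost the calls in at least 1 fit without an azacitidine library (highest adjusted p = 0.0562 to 0.0882).

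Several members switched on late. DAZL, which binds RNA in germ cells, had 0, 0, 21 and 286 counts with romidepsin and 0, 0, 41 and 777 counts without it. No count was seen at 125 nM, and the gene was first read at 250 nM. Its level rose by 4.16 ± 0.31 on the log2 scale with each doubling of the dose (adjusted p = 3.52e-08), and it was at least 115-fold higher over the 6 azacitidine libraries than the floor of the 2 others. The other steepest slopes among genes with a mean of at least 1 CPM were of the cancer testis antigens MAGEA6 (3.72 ± 0.38), SSX1 (3.26 ± 0.26), PASD1 (3.05 ± 0.26) and MAGEA12 (3.05 ± 0.27) and of LOC100129520 (3.16 ± 0.25). MAGEA6, MAGEA12 and SSX1 belong to families with near-identical copies. Each of these 5 had 0 counts in both libraries without azacitidine, and adjusted p-values of the slope were 5.94e-09 (LOC100129520) to 3.97e-06 (MAGEA6).

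Of 48 autosomal germline genes tested 8 rose and 0 fell over all doses (15 rose by DESeq2, 0 without the romidepsin-alone library and 4 without the untreated one). The counts were 5 higher at 125 nM, 19 higher and 2 lower at 250 nM, and 31 higher and 3 lower at 500 nM (24 to 31 higher with 1 library left out). Background shares of all genes were 5.94% higher and 2.39% lower over all doses. They were 3.72% and 1.67% at 125 nM, 10.3% and 4.16% at 250 nM, and 20.5% and 11.9% at 500 nM. Some members were expressed from the start: 20 of all 67, tested or not, had at least 10 counts in untreated cells. The summed level of the list was 321 to 684 CPM with azacitidine and 268 to 274 CPM without it. GTSF1, which acts in the piRNA pathway that silences transposons in germ cells, was at 0.0929, 6.04, 22.1 and 35.8 CPM with romidepsin and 0.0873, 5.29, 22.7 and 34.5 CPM without it at 0, 125, 250 and 500 nM. The 2 romidepsin states were nearly equal at each dose, and all 6 azacitidine libraries lay far above both others, which together held 4 counts (log2 fold change 7.73 ± 1.41, adjusted p = 0.0014). PRAME, a cancer testis antigen encoded on an autosome, was at 4.13, 47.6, 99.4 and 145 CPM with romidepsin and 2.01, 18.7, 40.5 and 64.7 CPM without it (log2 fold change 4.41 ± 0.76, adjusted p = 7.64e-04). TEX15, needed for meiosis and piRNA-guided silencing in mice, was at 0.789, 5.32, 13.1 and 33.1 CPM with romidepsin and 0.0436, 2.35, 8.62 and 11.7 CPM without it (log2 fold change 4.92 ± 0.92, adjusted p = 0.00164), and TEX14, of germ cell intercellular bridges, at 1.25, 3.17, 4.39 and 8.3 CPM with romidepsin and 1.0, 1.29, 2.46 and 3.27 CPM without it (log2 fold change 1.62 ± 0.34, adjusted p = 0.00426). BRDT, the bromodomain protein of testis, held 1954 counts with azacitidine and 1 without, 597 times as high (95% interval 107 to 23604) (adjusted p = 0.0292). In both states it grew with the dose, to 43.5 CPM with romidepsin and 12.3 CPM without it at 500 nM. Leaving out the romidepsin-alone library ended the calls of GTSF1, PRAME, TEX15, TEX14 and BRDT (adjusted p = 0.0709 to 0.402). Dropping the untreated library ended the call of BRDT (adjusted p = 0.17). In at least 1 fit without an azacitidine library, BRDT also lost the call (highest adjusted p = 0.0524).

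Promoter windows of a raised gene with few CpG dinucleotides and of one with many are shown, from RefSeq on GRCh38.p14, 250 bases before to 50 after the start, on the strand of the gene. GTSF1 lies at chr12:54473553-54473852 on the minus strand and holds 10 CpG, and KLF2, described with the transcription factors, at chr19:16324576-16324875 on the plus strand with 49. Capitals mark CpG, the dinucleotide that DNA methyltransferases modify.
GTSF1: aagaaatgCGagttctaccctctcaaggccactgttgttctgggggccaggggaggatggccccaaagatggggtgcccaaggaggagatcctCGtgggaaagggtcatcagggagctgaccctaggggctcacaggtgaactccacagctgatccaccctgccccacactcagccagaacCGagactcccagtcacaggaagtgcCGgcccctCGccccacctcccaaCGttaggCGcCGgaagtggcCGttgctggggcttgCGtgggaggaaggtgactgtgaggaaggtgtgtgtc
KLF2: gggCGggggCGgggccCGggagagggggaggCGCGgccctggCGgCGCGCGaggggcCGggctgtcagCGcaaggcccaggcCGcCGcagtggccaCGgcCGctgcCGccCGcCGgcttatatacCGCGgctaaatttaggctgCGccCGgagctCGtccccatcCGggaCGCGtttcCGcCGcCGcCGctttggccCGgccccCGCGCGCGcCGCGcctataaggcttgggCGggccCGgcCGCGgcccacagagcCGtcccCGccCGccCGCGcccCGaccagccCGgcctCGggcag
Both genes were among the 12 with levels plotted by dose. No methylation was measured, and a match of letters says nothing of the methylation state of a window.

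Complete switching between all libraries was rare. Of the 25559 symbols, 8 had 0 counts in both PF382 libraries without azacitidine and at least 10 in each of the 6 with it: CAMK2B, CTAG2, IL34, LOC219731, LOC401109, LRRC18, S100P and SELENBP1. None switched off by the same measure. The same rule gave 17 genes in TLOm1, 1 in HH and 0 in H9, and CTAG2 was the 1 gene shared with TLOm1. SELENBP1, a methanethiol oxidase that binds selenium, had 0, 26, 96 and 112 counts with romidepsin and 0, 21, 39 and 46 counts without it, at least 34.6-fold higher than the floor (adjusted p = 0.00518). IL34, a ligand of the CSF1 receptor, had 0, 26, 33 and 39 counts with romidepsin and 0, 10, 24 and 26 counts without it, at least 16.1-fold higher. CAMK2B, a calcium/calmodulin-dependent kinase of neurons, was at least 16.8-fold higher than the floor. LOC219731 and S100P did not pass the test over all doses.

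Others of the 12 largest increases by the rule for named genes began at or near 0 counts. ADD2, a membrane skeleton protein of red cells and neurons, was at 0, 0.929, 4.01 and 15.1 CPM with romidepsin and 0, 0.0392, 0.467 and 1.64 CPM without it. Its libraries with romidepsin were several times those without it at each dose, and it was at least 54.4-fold higher than the floor (adjusted p = 0.00528). MFAP2, a microfibril protein of the extracellular matrix, was at 0, 0.633, 3.03 and 8.5 CPM with romidepsin and 0, 0.0783, 0.17 and 0.479 CPM without it, at least 31.5-fold higher (adjusted p = 0.0237). TFCP2L1, a transcription factor of pluripotent and kidney duct cells, was at least 31-fold higher (adjusted p = 0.00779). LOC100507263, SUMO1P1 and LOC650368 are not annotated further here, and SUMO1P1 by its symbol is a pseudogene whose reads may come from a near-identical gene. They were at least 30.1-fold higher, 152 times as high (95% interval 27.1 to 6013) and 120.3 times as high (95% interval 33.2 to 995). In the fit without the romidepsin-alone library, ADD2, MFAP2, TFCP2L1, LOC100507263, SUMO1P1, LOC650368 and SELENBP1 lost the calls (adjusted p = 0.193 to 0.631). Without the untreated library the calls of MFAP2, LOC100507263, SUMO1P1, LOC650368 and SELENBP1 ended (adjusted p = 0.0511 to 0.146). At least 1 fit without an azacitidine library also ended the call of LOC100507263 (highest adjusted p = 0.0789).

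Among 37 oncogenes and pathway genes of T-cell leukemia tested, 7 rose and 2 fell, with a median change of 0.63 against 0.04 over all genes (11 rose by DESeq2, 1 without the romidepsin-alone library and 5 without the untreated one). At 500 nM 16 rose and 3 fell, and 10 to 16 rose with 1 library left out, the fewest without the romidepsin-alone library. The shares of all genes tested were 5.94% higher and 2.39% lower over all doses, and 20.5% and 11.9% at 500 nM. HHEX, a homeobox factor of early progenitors, was at 0.418, 8.61, 9.98 and 14.2 CPM with romidepsin and 0.698, 1.88, 2.34 and 2.59 CPM without it at 0, 125, 250 and 500 nM. The combinations stood above azacitidine alone at each dose, and all 6 lay above both others (log2 fold change 2.99 ± 0.59, adjusted p = 0.00251). LYL1, a basic helix-loop-helix factor, was at 0.325, 1.31, 2.64 and 2.32 CPM with romidepsin and 0.0436, 0.627, 1.15 and 1.16 CPM without it (log2 fold change 3.04 ± 0.65, adjusted p = 0.00477), and MYCN, a MYC family factor, at 0.186, 0.844, 1.75 and 3.07 CPM with romidepsin and 0.218, 0.862, 1.02 and 2.11 CPM without it (log2 fold change 2.89 ± 0.59, adjusted p = 0.00314). The homeobox genes MEIS1 (log2 fold change 1.15 ± 0.25, adjusted p = 0.00477) and MEIS2 (log2 fold change 1.13 ± 0.21, adjusted p = 0.00169) rose as well. MYC, of the same family as MYCN, was at 409, 275, 239 and 144 CPM with romidepsin and 379.9, 269.7, 249.7 and 212 CPM without it and fell, with all 6 azacitidine libraries below both others (log2 fold change -0.81 ± 0.19, adjusted p = 0.00924). ALDH1A2, a retinaldehyde dehydrogenase, fell too (log2 fold change -0.88 ± 0.24, adjusted p = 0.0291). TAL1, an activated oncogene in many such leukemias, was at 66.8, 83.5, 86.4 and 88.1 CPM with romidepsin and 81.5, 87.4, 90.6 and 83.6 CPM without it and did not pass (adjusted p = 0.677). The calls of HHEX, LYL1, MYCN, MEIS1, MEIS2, MYC and ALDH1A2 ended without the romidepsin-alone library (adjusted p = 0.115 to 0.466). With the untreated library left out, the calls of LYL1, MEIS1, MYC and ALDH1A2 ended (adjusted p = 0.0583 to 0.135). ALDH1A2 further lost the call in at least 1 fit without an azacitidine library (highest adjusted p = 0.0581).

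Of 30 transcription factors of the T lineage 4 rose and 1 fell, against 5.94% and 2.39% of all genes. At 500 nM 10 rose and 10 fell, against 20.5% and 11.9% of all genes. KLF2, a factor that drives the exit of mature T cells from the thymus, was at 3.06, 40.2, 90.3 and 117 CPM with romidepsin and 3.45, 15.8, 23.3 and 26.6 CPM without it at 0, 125, 250 and 500 nM. Its 2 libraries without azacitidine were nearly equal, and the combinations stood above azacitidine alone at each dose (log2 fold change 3.58 ± 0.58, adjusted p = 4.39e-04). PRDM1, the repressor Blimp-1, was at 0.511, 3.29, 5.93 and 9.58 CPM with romidepsin and 1.0, 2.27, 2.51 and 3.51 CPM without it (log2 fold change 2.42 ± 0.46, adjusted p = 0.00206), and STAT5A, a transducer of cytokine signals, at 82, 240.2, 269.6 and 234 CPM with romidepsin and 73.1, 139, 171 and 159 CPM without it (log2 fold change 1.29 ± 0.24, adjusted p = 0.0014). FOXO1, which controls KLF2 and IL7R in T cells, also rose (log2 fold change 0.85 ± 0.27, adjusted p = 0.0496). IKZF1, the lymphoid factor Ikaros, was the member that fell, at 314, 253, 239 and 217 CPM with romidepsin and 301, 242, 232 and 216 CPM without it (log2 fold change -0.44 ± 0.11, adjusted p = 0.0139). Leaving out the romidepsin-alone library ended the calls of KLF2, PRDM1, STAT5A, FOXO1 and IKZF1 (adjusted p = 0.0926 to 0.716). For FOXO1 and IKZF1 the calls ended without the untreated library (adjusted p = 0.0894 to 0.125). In at least 1 fit without an azacitidine library, FOXO1 also lost the call (highest adjusted p = 0.0995).

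Many genes of the thymocyte stage fell. Of 23 tested, 10 were lower and 1 higher over all doses, against 2.39% and 5.94% of all genes, with a median change of -0.47. The number lower was 0 without the romidepsin-alone library and 6 without the untreated one. The members lower were 7 at 125 nM, 12 at 250 nM and 14 at 500 nM (12 to 14 with 1 library left out). Among all genes tested 1.67%, 4.16% and 11.9% were lower at 125, 250 and 500 nM. DNTT, the terminal transferase that adds bases at antigen receptor junctions, was at 8.78, 2.03, 1.11 and 0.747 CPM with romidepsin and 3.58, 0.862, 0.594 and 0.239 CPM without it at 0, 125, 250 and 500 nM. Its level was lower at each higher dose in both states, and all 6 azacitidine libraries lay below both others (log2 fold change -2.74 ± 0.42, adjusted p = 0.00114). IL7R, the interleukin-7 receptor chain, was at 12, 3.93, 2.43 and 0.912 CPM with romidepsin and 14.3, 4.9, 2.76 and 0.718 CPM without it (log2 fold change -2.37 ± 0.43, adjusted p = 0.0014). RAG1, of the recombinase that cuts antigen receptor genes, was at 1436, 645, 450.3 and 319 CPM with romidepsin and 1268, 963, 829 and 680.1 CPM without it (log2 fold change -1.20 ± 0.24, adjusted p = 0.00247), and RAG2, its partner, at 68.6, 39.5, 29.3 and 22 CPM with romidepsin and 52.9, 41.5, 30.5 and 16.7 CPM without it (log2 fold change -1.05 ± 0.29, adjusted p = 0.0283).

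The lipid antigen-presenting molecules CD1A (log2 fold change -1.04 ± 0.23, adjusted p = 0.0244), CD1C (log2 fold change -1.35 ± 0.28, adjusted p = 0.00932) and CD1E (log2 fold change -1.57 ± 0.31, adjusted p = 0.0113), which mark cortical thymocytes, fell together. CD1E was at 95.9, 33.9, 23.3 and 14.2 CPM with romidepsin and 66.7, 41.7, 34.7 and 26.3 CPM without it, lower at each higher dose in both states. ARPP21, TOX and BCL6 were the other members that fell. CD34, a marker of progenitors, was the member that rose, at 8.54, 34.1, 32.5 and 23.7 CPM with romidepsin and 1.31, 4.23, 5.05 and 3.55 CPM without it (log2 fold change 1.73 ± 0.33, adjusted p = 0.00381). In the fit without the romidepsin-alone library, DNTT, IL7R, RAG1, RAG2, CD1A, CD1C, CD1E, CD34, ARPP21, TOX and BCL6 lost the calls (adjusted p = 0.0857 to 0.486). RAG2, CD1A, CD34, TOX and BCL6 lost the calls in the fit without the untreated library (adjusted p = 0.051 to 0.271). At least 1 fit without an azacitidine library also ended the calls of RAG2, CD1A and BCL6 (highest adjusted p = 0.0567 to 0.0656).

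Of 34 genes of the T-cell receptor and T-cell identity 2 rose and 7 fell (2 and 13 at 500 nM), and the number lower was 1 without the romidepsin-alone library and 0 without the untreated one. Among all genes tested 5.94% were higher and 2.39% lower over all doses, and 20.5% and 11.9% at 500 nM. THEMIS, which sets signal strength in developing thymocytes, was at 102, 45.4, 34.2 and 33.2 CPM with romidepsin and 145, 62.3, 45.3 and 33.8 CPM without it (log2 fold change -1.57 ± 0.39, adjusted p = 0.0138). RASGRP1, which couples the receptor to RAS, was at 43.2, 25.4, 20.4 and 21.4 CPM with romidepsin and 36.8, 20.1, 12.1 and 9.37 CPM without it (log2 fold change -1.22 ± 0.24, adjusted p = 0.00218). GRAP2, PTPRC, SH2D1A and SKAP1 fell too, by smaller amounts for the last 3 (log2 fold changes -0.66 ± 0.17, -0.52 ± 0.16 and -0.55 ± 0.17). CD8A (log2 fold change 1.20 ± 0.35, adjusted p = 0.0339) and LAT (log2 fold change 0.85 ± 0.18, adjusted p = 0.00346), an adaptor of the receptor, rose. CD5 at 44.1 to 80.6 CPM and CD7 at 15 to 42.1 CPM over the 8 libraries did not pass the test over all doses (adjusted p = 0.371 and 0.953). CD7, however, fell with the dose among the azacitidine libraries (slope per doubling -0.59 ± 0.15, adjusted p = 0.00982). The calls of THEMIS, GRAP2, PTPRC, SH2D1A, SKAP1, CD8A and LAT ended without the romidepsin-alone library (adjusted p = 0.102 to 0.494). Dropping the untreated library ended the calls of THEMIS, RASGRP1, GRAP2, PTPRC, SH2D1A, SKAP1 and CD8A (adjusted p = 0.0659 to 0.47). SH2D1A, SKAP1 and CD8A further lost the calls in at least 1 fit without an azacitidine library (highest adjusted p = 0.0719 to 0.102).

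The group with the most members lowered was that of the hypoxia response and glycolysis. When oxygen or its sensing is limiting, hypoxia-inducible factors raise glucose uptake, glycolysis and genes such as BNIP3, PDK1 and ADM. Of 43 members tested, 20 fell and 0 rose over all doses, against 2.39% and 5.94% of all genes, with a median change of -0.80 against 0.04. The members lower were 23 at 125 nM, 26 at 250 nM and 27 at 500 nM, where 11.9% of all genes were lower and 1 member was higher (18 to 30 lower with 1 library left out). Of all genes tested 1.67% were lower at 125 nM and 4.16% at 250 nM. All 6 azacitidine libraries lay below both others for 27 of the 43, against 7.33% of all genes tested. The summed level of the list was 9705 to 13019 CPM in the 6 azacitidine libraries, against 15617 CPM with romidepsin alone and 21275 CPM in untreated cells. The 2 libraries without azacitidine thus differed among themselves by more than romidepsin alone did from the highest azacitidine library. With the untreated library left out 1 member was called lower, and with romidepsin alone left out 6 were. Tested within each romidepsin state, 1 member was called lower with romidepsin and 4 without it.

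BNIP3, a mitochondrial protein of mitophagy and cell death, was at 56.9, 9.67, 8.83 and 7.34 CPM with romidepsin and 107, 24.1, 14.5 and 5.62 CPM without it at 0, 125, 250 and 500 nM. Every azacitidine library lay far below both others (log2 fold change -2.84 ± 0.47, adjusted p = 6.08e-04). AK4, a mitochondrial adenylate kinase, was at 27.2, 6.96, 7.21 and 9.54 CPM with romidepsin and 56.3, 11, 5.94 and 1.87 CPM without it (log2 fold change -2.58 ± 0.41, adjusted p = 4.18e-04), and PDK1, which keeps pyruvate out of the citric acid cycle, at 41.9, 14.4, 12.7 and 12.7 CPM with romidepsin and 64.1, 20.1, 15.8 and 10.5 CPM without it (log2 fold change -1.90 ± 0.40, adjusted p = 0.00426). ADM, the vasodilator adrenomedullin, was at 0.65, 0.127, 0.213 and 0.29 CPM with romidepsin and 2.09, 0.235, 0.0849 and 0.0798 CPM without it (log2 fold change -2.94 ± 0.51, adjusted p = 8.51e-04). Its azacitidine libraries were near the floor, and the untreated library stood well above romidepsin alone. BHLHE40, a circadian and hypoxia-induced repressor, was at 1.11, 0.633, 1.02 and 1.24 CPM with romidepsin and 4.71, 0.783, 0.849 and 0.917 CPM without it (log2 fold change -1.66 ± 0.31, adjusted p = 0.00176). In the combinations it overlapped romidepsin alone, and its log2 fold change was -0.26 without the untreated library and -2.50 without the romidepsin-alone library. MIR210HG, the host transcript of a hypoxia-induced microRNA and no member of the list, was at 13.7, 1.9, 1.96 and 2.86 CPM with romidepsin and 33.3, 9.24, 4.08 and 1.32 CPM without it (log2 fold change -2.73 ± 0.83, adjusted p = 0.0413). Leaving out the romidepsin-alone library ended the calls of PDK1 and MIR210HG (adjusted p = 0.0993 to 0.359). Without the untreated library the calls of AK4, PDK1, ADM, BHLHE40 and MIR210HG ended (adjusted p = 0.0843 to 0.78). In at least 1 fit without an azacitidine library, MIR210HG also lost the call (highest adjusted p = 0.084). BNIP3 kept the call in each of the 8 fits with 1 PF382 library left out.

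Enzymes along the path of glycolysis were among the 20 members that fell. The glucose transporter SLC2A1 was at 79.3, 52.7, 49.6 and 42.3 CPM with romidepsin and 111, 76.2, 61.1 and 54.5 CPM without it (log2 fold change -0.80 ± 0.20, adjusted p = 0.0166), and the hexokinase HK2 at 93.4, 46.1, 48.8 and 44.3 CPM with romidepsin and 151, 84, 77.4 and 74.3 CPM without it (log2 fold change -1.02 ± 0.28, adjusted p = 0.0243). GPI, which turns glucose 6-phosphate into fructose 6-phosphate, was at 469.7, 297, 279 and 206 CPM with romidepsin and 827, 421, 369.9 and 256 CPM without it (log2 fold change -1.09 ± 0.25, adjusted p = 0.00865). LDHA, which makes lactate, was at 1536, 743, 667 and 519 CPM with romidepsin and 2421, 1125, 934 and 598 CPM without it, lower at each higher dose in both states (log2 fold change -1.40 ± 0.30, adjusted p = 0.00426). PGK1 was at 1023, 637, 602 and 512 CPM with romidepsin and 1458, 644, 571 and 447 CPM without it (log2 fold change -1.16 ± 0.25, adjusted p = 0.00481) and ENO1 at 2120.00, 1303, 1234 and 917 CPM with romidepsin and 3121, 1707, 1520.5 and 1136 CPM without it (log2 fold change -1.03 ± 0.21, adjusted p = 0.0029), and both reached their lowest level at 500 nM. PFKP, PFKL, PFKFB3, ALDOA, TPI1 and PGAM1, the enzymes between or beside these steps, fell too, with log2 fold changes from -1.64 ± 0.41 (PFKFB3) to -0.41 ± 0.11 (PFKL). DDIT4, P4HA1 and ANKZF1 complete the 20. HIF1A, the regulated factor subunit itself, was at 120.4, 123, 108 and 117 CPM with romidepsin and 108, 112, 105 and 111 CPM without it and did not pass (adjusted p = 0.66). VEGFA, the vascular growth factor, did not pass over all doses (adjusted p = 0.197) and rose with the dose among the azacitidine libraries (slope 0.69 ± 0.09, adjusted p = 1.11e-05). In the fit without the romidepsin-alone library, SLC2A1, HK2, GPI, LDHA, PGK1, ENO1, PFKP, PFKL, PFKFB3, ALDOA, PGAM1, DDIT4, P4HA1 and ANKZF1 lost the calls (adjusted p = 0.0552 to 0.356). With the untreated library left out, the calls of SLC2A1, HK2, GPI, LDHA, PGK1, ENO1, PFKP, PFKL, PFKFB3, ALDOA, TPI1, PGAM1, DDIT4, P4HA1 and ANKZF1 ended (adjusted p = 0.085 to 0.403). At least 1 fit without an azacitidine library also ended the calls of ALDOA, PGAM1 and P4HA1 (highest adjusted p = 0.0504 to 0.0863).

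**Figure D3:**
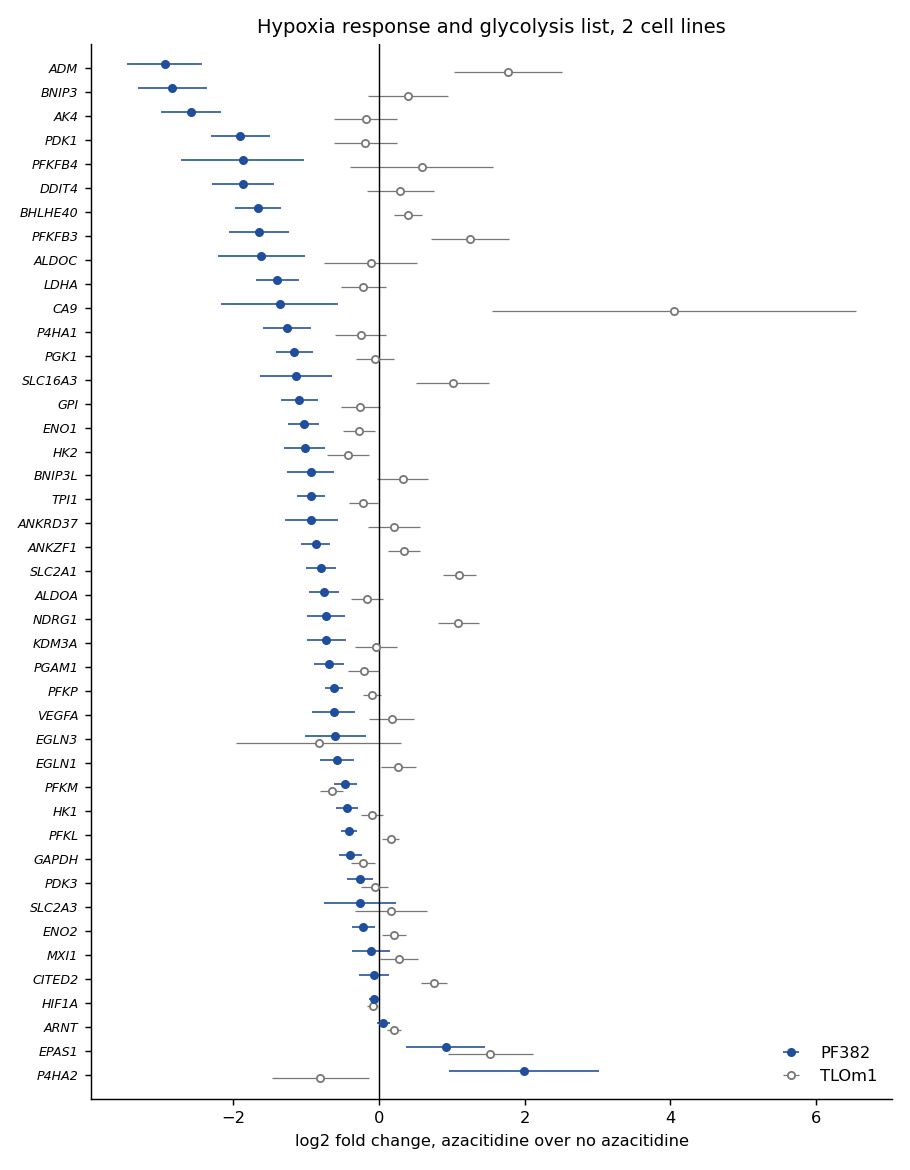
Log2 fold change with azacitidine over all doses, ± standard error, for the 43 members of the hypoxia and glycolysis list, with PF382 filled and TLOm1 open. In PF382 20 members were called lower and 0 higher, against 2.39% and 5.94% of all genes. In TLOm1, at the same doses, 1 was lower and 3 were higher, against 7.68% and 11% of all genes.

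Promoter windows of the list were searched for ACGTG or GCGTG on either strand, the letters at the core of the element that hypoxia-inducible factors bind. A match stood in 15 of the 19 lowered members that have a window (78.9%), in 12 of 19 members not lowered (63.2%), in 7848 of 13001 tested genes with a window (60.4%) and in 13213 of all 27305 windows (48.4%). BNIP3 at chr10:131981874-131982173 (minus strand) had 6 matches and ADM at chr11:10304823-10305122 (plus strand) had 1, in GRCh38.p14, and capitals mark them. CACGTG holds a match on each strand.
BNIP3: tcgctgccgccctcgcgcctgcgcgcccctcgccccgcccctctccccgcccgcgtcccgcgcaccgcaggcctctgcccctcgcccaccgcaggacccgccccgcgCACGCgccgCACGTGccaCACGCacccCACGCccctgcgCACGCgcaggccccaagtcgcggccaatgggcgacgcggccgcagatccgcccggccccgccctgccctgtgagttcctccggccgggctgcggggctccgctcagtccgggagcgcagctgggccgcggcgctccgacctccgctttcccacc
ADM: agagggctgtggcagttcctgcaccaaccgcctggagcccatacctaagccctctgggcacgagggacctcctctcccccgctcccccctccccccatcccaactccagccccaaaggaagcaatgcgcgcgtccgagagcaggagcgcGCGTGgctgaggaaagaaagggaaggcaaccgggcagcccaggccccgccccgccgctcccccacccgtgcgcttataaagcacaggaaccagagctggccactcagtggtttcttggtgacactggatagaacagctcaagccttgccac
A match is a description of letters, and no binding was measured.

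In TLOm1, at the same azacitidine doses, 3 members of the hypoxia list were higher and 1 lower, with a median of 0.16. Of all genes tested 11% were higher and 7.68% lower in that line. In HH, at lower doses, 2 were higher and 1 lower with a median of -0.41, against 4.07% and 1.8% of all genes. H9, also at lower doses, had 0 higher and 3 lower with a median of -0.51, against 2.81% and 3.06% of all genes. The difference between the lines was itself called for 9 of the 43, each lower in PF382, against 2.42% of all genes lower in that test. SLC2A1 differed by -1.90 ± 0.30 (adjusted p = 7.71e-04), BNIP3 by -3.24 ± 0.76 (adjusted p = 0.0164) and ADM by -4.71 ± 0.90 (adjusted p = 0.00352). Without the untreated library 1 of the 43 had a called difference from TLOm1, and the calls of BNIP3 and ADM ended (adjusted p = 0.0777 and 0.075). That of BNIP3 also ended without the romidepsin-alone library (adjusted p = 0.0686). Against the mean of the other 3 lines 5 of the 43 were lower in PF382, where 0.837% of all genes were.

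The products of MHC class I genes show peptides to cytotoxic T cells. Of 30 genes of presentation and peptide loading 7 were higher and 3 lower, against 5.94% and 2.39% of all genes, and the number higher was 1 without the romidepsin-alone library and 7 without the untreated one. The 3 lower ones were CD1A, CD1C and CD1E, given above. HLA-B was at 122, 347, 438 and 546 CPM with romidepsin and 56.7, 83.5, 94.6 and 107 CPM without it at 0, 125, 250 and 500 nM (log2 fold change 1.22 ± 0.17, adjusted p = 8.51e-05). Its romidepsin-alone library lay above the 3 libraries of azacitidine alone, so the groups overlap unless matched on romidepsin. HLA-C was at 169, 348, 424 and 444 CPM with romidepsin and 123, 159, 174 and 185 CPM without it (log2 fold change 0.81 ± 0.13, adjusted p = 3.54e-04). CALR, a chaperone of the loading complex, was at 1163, 1665, 1882 and 1971 CPM with romidepsin and 978, 1364, 1448 and 1325 CPM without it (log2 fold change 0.53 ± 0.09, adjusted p = 0.00105), and HLA-F, TAP1 and TAP2 rose as well. HLA-B and HLA-C share much of their sequence with each other and with other class I genes, and reads may be split between them. Of 20 class II genes 2 rose, HLA-DMB and HLA-DMA, which edit the peptides of class II. HLA-DMB was at 0.186, 0.76, 1.66 and 2.36 CPM with romidepsin and 0, 0.274, 0.212 and 0.0798 CPM without it, HLA-DMA at 2.04, 3.33, 5.46 and 5.89 CPM with romidepsin and 1.22, 1.49, 2.12 and 1.64 CPM without it, each at most a few CPM. The calls of HLA-C, CALR, HLA-F, TAP1, TAP2, HLA-DMB and HLA-DMA ended without the romidepsin-alone library (adjusted p = 0.124 to 0.914). For TAP2 the call ended without the untreated library (adjusted p = 0.0564). HLA-F further lost the call in at least 1 fit without an azacitidine library (highest adjusted p = 0.0588). HLA-B kept the call in each of the 8 fits with 1 PF382 library left out.

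Of 50 interferon-stimulated genes 7 rose over all doses and 0 fell, against 5.94% and 2.39% of all genes, with a median of 0.24 (1 rose without the romidepsin-alone library and 3 without the untreated one). The counts were 3 at 125 nM, 11 at 250 nM and 20 at 500 nM. Of all genes tested 3.72%, 10.3% and 20.5% were higher at these doses. The 500 nM count was 6 without the romidepsin-alone library and 17 without the untreated one. IFITM2, which blocks virus entry, was at 0.464, 5.02, 9.21 and 9.54 CPM with romidepsin and 0.349, 2.7, 4.25 and 6.14 CPM without it (log2 fold change 3.83 ± 0.54, adjusted p = 1.15e-04). OAS3, a sensor of double-stranded RNA, was at 72.6, 129, 128 and 119 CPM with romidepsin and 50.8, 80.7, 95.7 and 103 CPM without it (log2 fold change 0.79 ± 0.18, adjusted p = 0.00875), and BST2, which tethers budding viruses, at 9.61, 18.7, 21.2 and 25.6 CPM with romidepsin and 12.2, 14.9, 16 and 13 CPM without it (log2 fold change 0.65 ± 0.15, adjusted p = 0.00813). HERC6 (log2 fold change 0.80 ± 0.22, adjusted p = 0.0245), IFITM3, OAS2 and IFI35 were the other members. ISG15 at 16.8, 20.8, 21.4 and 21.3 CPM with romidepsin and 23.2, 19, 18.2 and 15.8 CPM without it and IFIT1 at 7.48, 7.3, 6.23 and 6.72 CPM with romidepsin and 8.6, 7.44, 5.31 and 3.95 CPM without it, common readouts of an interferon response, did not pass (adjusted p = 0.839 and 0.606). Of 25 nucleic acid sensors and adaptors 2 rose, TBK1 and IRF5, and 2 fell, IFI16 (log2 fold change -0.46 ± 0.11, adjusted p = 0.00948) and TLR7, the endosomal RNA sensor, at 5.43, 2.03, 0.981 and 0.415 CPM with romidepsin and 2.53, 0.666, 0.51 and 0.16 CPM without it (log2 fold change -2.40 ± 0.58, adjusted p = 0.012). Of 4 genes of endogenous retroviral origin edgeR's test, DESeq2 and limma-voom each called 0, and 0 had an unadjusted p under 0.05. Leaving out the romidepsin-alone library ended the calls of OAS3, BST2, HERC6, IFITM3, OAS2, IFI35, IRF5, IFI16 and TLR7 (adjusted p = 0.12 to 0.909). OAS3, HERC6, IFITM3, IFI35, IRF5, IFI16 and TLR7 lost the calls in the fit without the untreated library (adjusted p = 0.0978 to 0.361). In at least 1 fit without an azacitidine library, IFITM3, OAS2, IFI35 and IRF5 also lost the calls (highest adjusted p = 0.0606 to 0.0824). IFITM2 kept the call in each of the 8 fits with 1 PF382 library left out.

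The genes of azacitidine's own targets and entry had few calls over all doses, where 8.33% of all genes were called. DNMT1, the maintenance methyltransferase, was at 742, 751, 767 and 711 CPM with romidepsin and 769, 776, 805 and 790.3 CPM without it at 0, 125, 250 and 500 nM, and its change of -0.02 ± 0.08 did not pass (adjusted p = 0.904). The message says nothing of the protein, which azacitidine traps on DNA. DNMT3A did not pass over all doses (adjusted p = 0.476). DNMT3B, a de novo methyltransferase, was at 78, 212, 243 and 244 CPM with romidepsin and 61.3, 131, 137 and 94.3 CPM without it and rose (log2 fold change 1.23 ± 0.34, adjusted p = 0.0258), and ZBTB38, a protein that binds methylated CpG, rose as well (log2 fold change 2.29 ± 0.45, adjusted p = 0.0024). These 2 were the only calls among 22 enzymes and readers of DNA methylation over all doses. Of 24 genes of azacitidine uptake and nucleotide metabolism edgeR's test, DESeq2 and limma-voom each called 0 over all doses. By edgeR's test 4 had an unadjusted p under 0.05. At 500 nM edgeR called 4 of the 24 higher and 8 lower, against 20.5% and 11.9% of all genes. UCK2, the kinase that activates azacitidine, was at 82.9, 91.6, 95.7 and 87.7 CPM with romidepsin and 89.4, 100.02, 105 and 103 CPM without it (adjusted p = 0.695). SLC29A1, the nucleoside transporter ENT1, was at 276, 226, 205 and 117 CPM with romidepsin and 308, 344, 305 and 224 CPM without it. It did not pass over all doses (adjusted p = 0.196), and it fell with each doubling of the dose (-0.41 ± 0.07, adjusted p = 9.17e-05). In the fit without the romidepsin-alone library, DNMT3B and ZBTB38 lost the calls (adjusted p = 0.121 to 0.486). Dropping the untreated library ended the calls of DNMT3B and ZBTB38 (adjusted p = 0.0513 to 0.0978).

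Several groups had more calls at 500 nM than over all doses, as did the genes tested as a whole, of which 20.5% were higher and 11.9% lower at 500 nM against 5.94% and 2.39% over all doses. Of 41 genes of ATF4 and endoplasmic reticulum stress, which answer amino acid shortage and misfolded protein, 4 rose over all doses (0 without the romidepsin-alone library and 1 without the untreated one) and 24 at 500 nM, with 0 lower in either, and 23 rose with the dose. CHAC1, which degrades glutathione, was at 7.48, 10.3, 24 and 62 CPM with romidepsin and 6.85, 9.71, 17.7 and 36.4 CPM without it (log2 fold change 1.81 ± 0.50, adjusted p = 0.0263 over all doses). XBP1, a factor of the unfolded protein response, was at 4.32, 11.7, 15.3 and 21.5 CPM with romidepsin and 3.05, 4.78, 5.6 and 8.38 CPM without it (log2 fold change 1.45 ± 0.26, adjusted p = 0.00126). CTH (log2 fold change 1.16 ± 0.32, adjusted p = 0.0256) and MTHFD2 (log2 fold change 0.30 ± 0.09, adjusted p = 0.0485), enzymes of cysteine and folate metabolism, were the other 2. DDIT3, which encodes the stress factor CHOP, was at 10.8, 13.2, 14.4 and 29.99 CPM with romidepsin and 12.7, 14.3, 18.6 and 35.1 CPM without it and TRIB3, a pseudokinase, at 32.7, 30.2, 42.1 and 77.7 CPM with romidepsin and 33, 39.5, 50.6 and 197 CPM without it. These 2 were highest at 500 nM in both states (log2 fold changes there 1.39 ± 0.14 and 1.88 ± 0.25, adjusted p = 3.34e-07 and 3.02e-05). The 500 nM count was 18 to 24 with 1 library left out. The calls of CHAC1, XBP1, CTH and MTHFD2 ended without the romidepsin-alone library (adjusted p = 0.195 to 0.412). For CHAC1, CTH and MTHFD2 the calls ended without the untreated library (adjusted p = 0.141 to 0.389). Leaving out 1 of the 6 azacitidine libraries ended the calls of CHAC1, CTH and MTHFD2 in at least 1 fit (highest adjusted p = 0.0594 to 0.0973).

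Among 28 genes that make or import cholesterol 2 fell and 1 rose over all doses, with a median of -0.43. The share of all genes lower was 2.39% over all doses, 4.16% at 250 nM and 11.9% at 500 nM. The share higher was 5.94%, 10.3% and 20.5%. A fit of the PF382 libraries alone called 13 lower, and leaving out either library without azacitidine gave 0. The members lower were 15 at 250 nM and 21 at 500 nM (14 to 21 with 1 library left out, the fewest without azacitidine alone at 500 nM), and 1 was higher at each. INSIG1, a sterol sensor that restrains synthesis, was at 329, 195, 155 and 132 CPM with romidepsin and 507, 289, 201 and 131 CPM without it (log2 fold change -1.21 ± 0.36, adjusted p = 0.0391). MYLIP, a ubiquitin ligase, was the member that rose (log2 fold change 0.90 ± 0.27, adjusted p = 0.0381). HMGCS1, an early enzyme of the pathway, was at 124, 72.3, 57.6 and 58.4 CPM with romidepsin and 234, 141, 111 and 88 CPM without it and fell at 500 nM (log2 fold change -1.33 ± 0.32, adjusted p = 0.00562). Of 14 genes of fatty acid synthesis 3 fell over all doses, and at 500 nM 8 fell and 2 rose. SCD, the desaturase that makes oleate, was at 615, 273, 198 and 142 CPM with romidepsin and 931, 496, 301 and 143 CPM without it (log2 fold change -1.62 ± 0.50, adjusted p = 0.045), and ACACA (log2 fold change -0.49 ± 0.14, adjusted p = 0.0258) and ACSL3 (log2 fold change -0.50 ± 0.14, adjusted p = 0.0281) were the others. In TLOm1 15 cholesterol genes fell, with a median of -0.83, where 7.68% of all genes were lower. The difference between PF382 and TLOm1 was called for none of the 28. In HH, at lower azacitidine doses, 17 fell with a median of -0.93, where 1.8% of all genes were lower. In H9, also at lower doses, 3 fell with a median of -0.45, where 3.06% were. Leaving out the romidepsin-alone library ended the calls of INSIG1, MYLIP, SCD, ACACA and ACSL3 (adjusted p = 0.317 to 0.581). INSIG1, MYLIP, SCD, ACACA and ACSL3 lost the calls in the fit without the untreated library (adjusted p = 0.0641 to 0.287). In at least 1 fit without an azacitidine library, INSIG1, MYLIP, SCD, ACACA and ACSL3 also lost the calls (highest adjusted p = 0.0555 to 0.0956).

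Of 30 genes of MYC and ribosome biogenesis 1, MYC, fell over all doses and 16 at 500 nM, where 0 rose and 11.9% of all genes were lower. That count was 7 without the romidepsin-alone library and 26 without the untreated one. NPM1, a nucleolar chaperone, was at 1483, 1244, 1128 and 940.00 CPM with romidepsin and 1361, 1325, 1253 and 1049 CPM without it and fell at 500 nM (log2 fold change -0.60 ± 0.09, adjusted p = 3.92e-05). Of 57 genes of the cell cycle and DNA replication 1 rose and 1 fell over all doses, and at 500 nM 1 rose and 19 fell (9 to 19 lower with 1 library left out). TK1, thymidine kinase, was at 25.6, 53.1, 76.6 and 59.1 CPM with romidepsin and 38, 48.3, 58.6 and 36 CPM without it (log2 fold change 0.73 ± 0.19, adjusted p = 0.019) and TTK, a kinase of the spindle checkpoint, at 138, 111, 93.1 and 96.2 CPM with romidepsin and 138, 119, 107 and 80.2 CPM without it (log2 fold change -0.49 ± 0.15, adjusted p = 0.0428). Of 30 p53 targets 2 rose and 2 fell over all doses, against 5.94% and 2.39% of all genes. At 500 nM 12 rose and 4 fell, against 20.5% and 11.9% of all genes. PLK2 (log2 fold change 2.60 ± 0.71, adjusted p = 0.0259) rose with TP53I3, and DDB2 (log2 fold change -0.60 ± 0.15, adjusted p = 0.0148) and CYFIP2 (log2 fold change -0.58 ± 0.13, adjusted p = 0.00806) fell. CDKN1A, the cell-cycle inhibitor p21, was at 5.99, 11.9, 15.6 and 24.1 CPM with romidepsin and 2.23, 3.13, 3.52 and 8.61 CPM without it. It did not pass over all doses (adjusted p = 0.0607) and rose at 500 nM (log2 fold change 1.93 ± 0.36, adjusted p = 8.93e-04). Of 34 pro-apoptotic genes 1 rose and BNIP3 fell over all doses, and at 500 nM 13 rose and 3 fell. Of 12 anti-apoptotic genes 0 were called by edgeR, DESeq2 or limma-voom over all doses, with 1 at an unadjusted p under 0.05. Of 8 inhibitors of cyclin-dependent kinases edgeR and limma-voom called 0 and DESeq2 1, with 1 at an unadjusted p under 0.05. In the fit without the romidepsin-alone library, TK1, TTK, PLK2, DDB2 and CYFIP2 lost the calls (adjusted p = 0.106 to 0.703). Dropping the untreated library ended the calls of TTK, PLK2, DDB2 and CYFIP2 (adjusted p = 0.11 to 0.299). At least 1 fit without an azacitidine library also ended the calls of TTK and PLK2 (highest adjusted p = 0.0523 to 0.0833).

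**Figure D4:**
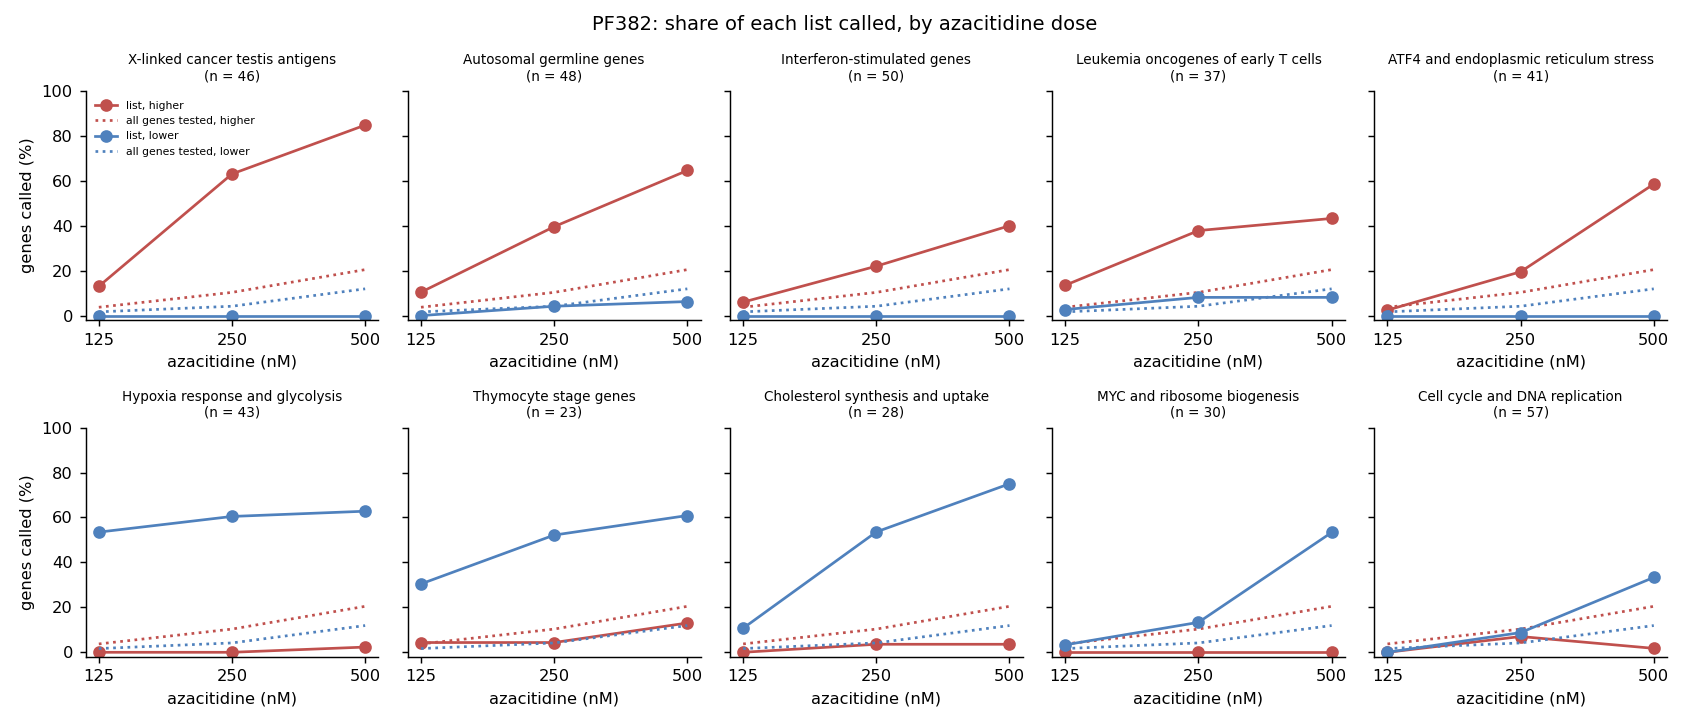
Percent of the tested members of 10 gene lists called higher or lower in PF382 at 125, 250 and 500 nM azacitidine, with the percent of all genes tested as dotted lines. The hypoxia list already had 23 of 43 members lower at 125 nM, while the X-linked cancer testis antigens had 6 of 46 higher at 125 nM and 39 at 500 nM.

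Some genes of other tissues rose, with 5.94% of all genes higher over all doses and 20.5% at 500 nM as the background. Of 32 protocadherins, adhesion proteins of neurons in clustered genes that share exons, 3 rose over all doses (5 by DESeq2 and by limma-voom) and 20 at 500 nM, with 0 lower (8 at 500 nM without the romidepsin-alone library). Of 40 neuronal genes 4 rose (9 by DESeq2), and at 500 nM 18 rose and 1 fell. MAP2, a microtubule protein, was at 1.72, 3.84, 5.2 and 8.5 CPM with romidepsin and 0.131, 0.94, 0.722 and 1.04 CPM without it (log2 fold change 1.96 ± 0.53, adjusted p = 0.0229). NXPH4, a ligand of neurexins, was at 3.48, 6.37, 13.6 and 20.9 CPM with romidepsin and 0.567, 1.8, 2.76 and 6.14 CPM without it (log2 fold change 2.14 ± 0.60, adjusted p = 0.0277), and SYT1 (log2 fold change 1.34 ± 0.29, adjusted p = 0.00465) and NRGN (log2 fold change 1.01 ± 0.30, adjusted p = 0.0353) rose. SYT1 stood higher without romidepsin than with it, and MAP2 the reverse. Among 21 imprinted genes 2 rose and 0 fell: SGCE, a sarcoglycan expressed from the paternal allele, at 1.76, 6.71, 9.43 and 13.5 CPM with romidepsin and 1.22, 2.94, 3.57 and 3.95 CPM without it (log2 fold change 2.0 ± 0.29, adjusted p = 1.23e-04), and PLAGL1 (log2 fold change 0.50 ± 0.13, adjusted p = 0.0149). MT2A, a metal-binding metallothionein, was at 19.9, 37, 39.2 and 31.9 CPM with romidepsin and 7.29, 18.2, 21.4 and 17.3 CPM without it (log2 fold change 1.05 ± 0.20, adjusted p = 0.00212), 1 of 6 of its family. The calls of MAP2, NXPH4, NRGN, SGCE and PLAGL1 ended without the romidepsin-alone library (adjusted p = 0.088 to 0.701). Without the untreated library the calls of MAP2, NXPH4, SYT1, PLAGL1 and MT2A ended (adjusted p = 0.109 to 0.422). Leaving out 1 of the 6 azacitidine libraries ended the calls of MAP2, NXPH4 and NRGN in at least 1 fit (highest adjusted p = 0.0528 to 0.0651).

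Markers of other cell types were among the raised genes, with 5.94% of all genes higher and 2.39% lower over all doses. Counts of calls are of tested markers, while summed levels cover all markers listed, tested or not. Those are 15 myeloid, 21 cytotoxic, 13 epithelial, 14 fibroblast and 16 erythroid markers. Of 10 B-cell markers 4 rose, among them CD79A at 11.3, 23.1, 26.4 and 21.5 CPM with romidepsin and 10.5, 18.7, 17.9 and 20.4 CPM without it, CD79B (at least 16.2-fold higher than the floor) and BLK (at least 8.76-fold higher). PAX5, the factor that defines B cells, was at 0.325, 1.22, 1.41 and 2.65 CPM with romidepsin and 0.0436, 0.117, 0.255 and 0.12 CPM without it and did not pass (adjusted p = 0.0714). Of 8 myeloid markers CEBPE, a granulocyte factor, rose (log2 fold change 3.29 ± 0.44, adjusted p = 7.34e-04), as did MPO, myeloperoxidase, which was 95.7 times as high (95% interval 17 to 3791); the summed level was 12.3 to 42.4 CPM with azacitidine and 7.42 to 14.6 CPM without it. GZMA, a granzyme, was at 0.604, 5.61, 7.12 and 9.04 CPM with romidepsin and 0.218, 0.548, 0.679 and 1.08 CPM without it (log2 fold change 3.09 ± 0.43, adjusted p = 1.90e-04), 1 of 12 cytotoxic markers called, and their summed level was 19.5 to 95.1 CPM against 14.8 to 21.6 CPM. Of 10 epithelial markers 3 rose, KRT8 at 3.25, 38.4, 61.8 and 96.1 CPM with romidepsin and 2.44, 12.3, 17.6 and 19.3 CPM without it (log2 fold change 3.53 ± 0.68, adjusted p = 0.00206), KRT18 and CLDN7, and MUC1 fell, with a summed level of 35.8 to 186 CPM against 18.5 to 30 CPM. EPCAM, which defines epithelial cells, did not pass the test over all doses. It held 163 counts in the 6 azacitidine libraries and 3 in the other 2, 16.6 times as high (95% interval 5.58 to 81.4, counting error only). Of 13 fibroblast markers 1 rose, PDGFRB, and 1 fell, DCN, with 38.8 to 293 CPM against 35 to 52.5 CPM. Of 5 erythroid markers edgeR, DESeq2 and limma-voom each called 0, with 1 at an unadjusted p under 0.05, at 6.19 to 22.8 CPM against 7.42 to 10.3 CPM. The part of these markers in other results was not tested. Leaving out the romidepsin-alone library ended the calls of CD79A, CD79B, BLK, CEBPE, MPO, GZMA, KRT8, KRT18, CLDN7, MUC1, PDGFRB and DCN (adjusted p = 0.0852 to 0.772). With the untreated library left out, the calls of CD79A, BLK, MPO, KRT18, CLDN7, MUC1, PDGFRB and DCN ended (adjusted p = 0.0576 to 0.349). In at least 1 fit without an azacitidine library, CD79A, KRT18, CLDN7, MUC1 and DCN also lost the calls (highest adjusted p = 0.0625 to 0.0758).

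Of 32 checkpoint and costimulatory molecules 4 rose and 0 fell, with 5.94% of all genes higher and 2.39% lower over all doses. LAG3, an inhibitory receptor, was at 1.11, 5.95, 7.68 and 5.31 CPM with romidepsin and 2.27, 3.6, 3.35 and 2.95 CPM without it (log2 fold change 1.36 ± 0.33, adjusted p = 0.012), with its untreated library above romidepsin alone. CD226 (log2 fold change 1.44 ± 0.41, adjusted p = 0.0291), CTLA4 and CD40 were the others. The last 2 held 1 and 0 counts without azacitidine and were 18.6 times as high (95% interval 3.22 to 748) and at least 8.86-fold higher. Of 33 cytokines and chemokines 5 rose and 0 fell. TNF was at 9.43, 23.6, 33.9 and 53.8 CPM with romidepsin and 8.9, 10.7, 12.4 and 30.2 CPM without it (log2 fold change 1.41 ± 0.39, adjusted p = 0.0246), highest at 500 nM in both states, and it was also the 1 call among 27 NF-kB genes. XCL1 (log2 fold change 3.38 ± 0.89, adjusted p = 0.0187), OSM (log2 fold change 1.93 ± 0.55, adjusted p = 0.0286), CSF1 (27.2 times as high (95% interval 4.76 to 1086)) and IL22, at 0.0464, 0.675, 1.07 and 3.07 CPM with romidepsin and 0, 0.117, 0.127 and 0.359 CPM without it, also rose. Of 45 Polycomb and histone-modifying enzymes RNF2 rose (log2 fold change 0.37 ± 0.11, adjusted p = 0.0419) and DOT1L fell (log2 fold change -0.46 ± 0.07, adjusted p = 1.90e-04), and of 9 efflux transporters ABCA2 rose (log2 fold change 1.46 ± 0.31, adjusted p = 0.00443). Of 33 clustered histone genes edgeR, DESeq2 and limma-voom each called 0 over all doses, with 1 at an unadjusted p under 0.05. In the fit without the romidepsin-alone library, LAG3, CD226, CTLA4, CD40, TNF, XCL1, OSM, CSF1, IL22, RNF2, DOT1L and ABCA2 lost the calls (adjusted p = 0.0819 to 0.682). For CD226, CTLA4, CD40, TNF, XCL1, OSM, IL22 and RNF2 the calls ended without the untreated library (adjusted p = 0.0548 to 0.243). At least 1 fit without an azacitidine library also ended the calls of CD226, CTLA4, TNF, OSM, IL22 and RNF2 (highest adjusted p = 0.0531 to 0.101).

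The remaining genes among the 12 largest decreases were at low levels. HKDC1, a hexokinase-like protein, was at 8.92, 2.79, 2.0 and 1.37 CPM with romidepsin and 13, 2.55, 1.49 and 0.279 CPM without it (log2 fold change -2.72 ± 0.52, adjusted p = 0.00213). C9, a complement component, was at 5.25, 1.27, 1.02 and 0.373 CPM with romidepsin and 2.92, 1.37, 0.34 and 0.439 CPM without it (log2 fold change -2.34 ± 0.56, adjusted p = 0.0256), and CCR8, a chemokine receptor, at 3.9, 1.98, 0.512 and 0.207 CPM with romidepsin and 1.31, 0.587, 0.212 and 0.16 CPM without it (log2 fold change -2.12 ± 0.63, adjusted p = 0.0369). IGFBP5, which binds insulin-like growth factors, was at 8.87, 4.47, 3.75 and 5.35 CPM with romidepsin and 17.6, 3.84, 1.91 and 1.91 CPM without it (log2 fold change -2.04 ± 0.45, adjusted p = 0.00627). FILIP1L was at 3.9, 1.06, 0.597 and 1.04 CPM with romidepsin and 2.09, 0.783, 0.807 and 0.399 CPM without it (log2 fold change -1.96 ± 0.38, adjusted p = 0.00213). All 6 azacitidine libraries lay below both others in HKDC1, C9, IGFBP5 and FILIP1L, and in CCR8 they overlapped. IGLL1, a surrogate light chain of pre-B cells, had no steady direction: it was at 0.418, 3.59, 2.43 and 0.373 CPM with romidepsin and 0.916, 12.5, 6.58 and 0.838 CPM without it. It peaked at 125 nM in both states, did not pass over all doses (adjusted p = 0.104) and fell among the azacitidine libraries (-1.64 ± 0.25 with each doubling, adjusted p = 5.22e-04). LOC284551 and CHRNA2, a nicotinic receptor subunit, also fell with each doubling (slopes -1.16 ± 0.21 and -1.10 ± 0.21). The calls of C9, CCR8 and FILIP1L ended without the romidepsin-alone library (adjusted p = 0.23 to 0.538). HKDC1, C9, CCR8 and IGFBP5 lost the calls in the fit without the untreated library (adjusted p = 0.135 to 0.413). Leaving out 1 of the 6 azacitidine libraries ended the calls of C9 and CCR8 in at least 1 fit (highest adjusted p = 0.051 to 0.097).

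The effect was compared between the 2 romidepsin states, which share no library. No gene had a called difference (0 higher, 0 lower of 17801, 0%), with 524 genes at an unadjusted p under 0.05 (2.94%). DESeq2 called 19 and limma-voom 0, and 5 were called without the 125 nM combination. With 3 libraries against 1 in each state, a missed threshold does not show that the states responded alike. Within the 4 libraries with romidepsin 331 genes were called higher and 48 lower (2.13%; 1.86% and 0.27%), and within the 4 without it 39 and 37 (0.427%; 0.219% and 0.208%). Of the 331 genes 313 had the same sign without romidepsin, as had 47 of the 48. Of the 39 genes 39 had the same sign with romidepsin, and 32 of the 37. The median of the genes called higher with romidepsin was 1.85 with it and 0.91 without it. For the genes called higher without romidepsin it was 1.76 in both states. Each list was chosen in 1 state. The share of all genes tested with the same sign in both states was not counted, so the counts of equal sign have no background.

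Across the lines, 233 genes were called higher in both PF382 and TLOm1. They were 22.0% of those higher in PF382, while 11% of all genes tested were higher in TLOm1. They were 11.9% of the 1961 higher in TLOm1, while 5.94% of all genes tested were higher in PF382. Called lower in both were 80. These were 18.8% of those lower in PF382, while 7.68% of all genes tested were lower in TLOm1. They were 5.85% of the 1368 lower in TLOm1, while 2.39% of all genes tested were lower in PF382. Of the genes called higher in PF382 22 were called lower in TLOm1, and of those lower in PF382 18 were higher there. The difference of the effects itself was called for 403 genes higher and 431 lower in PF382 than in TLOm1 (4.69%; 2.26% and 2.42%). That count was 76 higher and 191 lower without the romidepsin-alone library and 175 and 127 without the untreated one. It was called for 243 of the 1058 genes raised in PF382 and for 81 of the 425 lowered. Against the mean of the other 3 lines the difference was called for 201 genes higher and 149 lower (1.97%; 1.13% and 0.837%), with lower azacitidine doses in HH and H9. Without the romidepsin-alone library it was 19 higher and 42 lower, and without the untreated one 118 and 28. HH had 724 genes higher and 321 lower (5.87%; 4.07% and 1.8%), and H9 500 and 544 (5.86%; 2.81% and 3.06%).

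**Figure D5:**
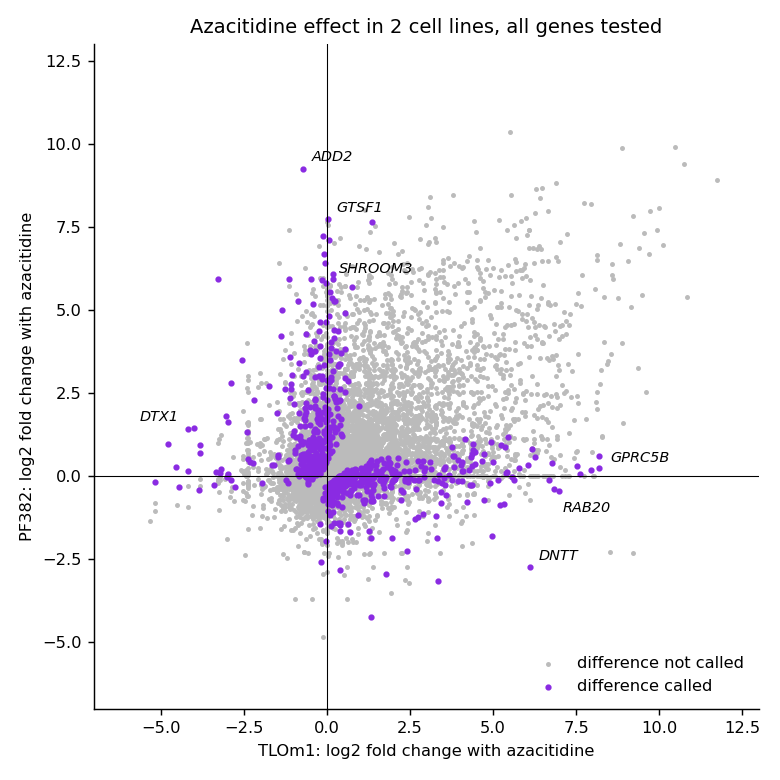
Log2 fold change with azacitidine in PF382 (vertical) against TLOm1 (horizontal) for the 17801 genes tested, with the 834 genes whose difference between the lines was called in purple. Genes such as DTX1 and GTSF1 rose in PF382 without rising in TLOm1.

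Of the leukemia gene list 6 of 37 had a called difference from TLOm1, each higher in PF382, against 2.26% of all genes higher, and 2 had one without the romidepsin-alone library. DTX1 was at 0 to 0.0951 CPM (median 0.0259) in the 6 TLOm1 libraries with azacitidine, against 0.569 CPM untreated and 0.74 CPM with romidepsin alone, far below its level in PF382. KLF2 differed by 4.69 ± 1.19 (adjusted p = 0.0228) and HLA-B by 0.77 ± 0.22 (adjusted p = 0.0417), and both calls ended without the romidepsin-alone library (adjusted p = 0.109 for KLF2 and 0.565 for HLA-B). GTSF1, near 0 without azacitidine in PF382, was already at 79 to 103 CPM (median 90.4) in the 6 TLOm1 libraries with azacitidine, against 80.2 CPM untreated and 98.7 CPM with romidepsin alone. C1orf51, lowered in PF382, rose in TLOm1 by 3.33 ± 0.44 (adjusted p = 4.34e-05), with 2.51 to 5.7 CPM with azacitidine, against 0.366 and 0.37 CPM without it.

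By place in the genome, 45 of the 1038 raised genes that matched RefSeq lay on chromosome X (4.34%), 10 of 405 lowered ones (2.47%) and 616 of all 16903 tested genes that matched (3.64%). At 500 nM 179 of 3533 raised genes lay there (5.07%).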

How the data were processed

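RNA of 8 PF382 libraries, of 32 from 4 T-cell lines, was sequenced on a NextSeq 500 after TruSeq Stranded mRNA preparation, per the labels. Those mention poly(A) RNA as well as depletion of ribosomal RNA. STAR, DESeq2, limma and GRCh37.p2 are named by the submitters' processing notes, without versions or steps. For the read counter, the annotation, the strand setting and any batch, the sources used here give nothing. The authors deposited raw read counts per gene symbol, 25559 in each table, which were used as deposited. Without a known strand setting, reads of overlapping genes cannot be told apart.

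Groups followed the labels. The title of 1 PF382 library spells the line otherwise than its cell line label, by which it was assigned. Combination titles give doses without a unit, read as nM. No label says that libraries came from separate cultures.

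Counts were scaled by TMM and tested with edgeR's quasi-likelihood F test with robust dispersions (R 4.3.3, edgeR 4.0.16) and Benjamini-Hochberg adjustment. filterByExpr (minimum count 10, minimum total 15) left 17801 genes. The design had an intercept per line and romidepsin state and an azacitidine effect per line (20 residual degrees of freedom). Further designs added the log2 dose (16), an effect per romidepsin state (16) or an effect per dose (12). A standard error is the fold change over the square root of F. Alternatives used DESeq2 1.42.0, limma-voom (limma 3.58.1), other scaling and filters, and left out 1 PF382 library at a time.

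The rule named the 12 largest changes in each direction among called genes with a mean of at least 1 CPM and all 6 azacitidine libraries on the same side, up to 4 called members of each of 39 gene lists, 6 genes per direction of other contrasts, markers, and DNMT1, DNMT3A, DNMT3B, UCK2 and SLC29A1. The members and lists were chosen with earlier results of these data known. Other genes were named after their values were seen, among them further called list members and CDKN1A, DDIT3, HIF1A, HMGCS1, IFIT1, ISG15, NPM1, TAL1, TRIB3 and VEGFA. Intervals (95%, exact) and floors of 3 counts cover only the error of counting reads without molecular identifiers. RefSeq matched 16903 of the tested symbols. Some called genes are not reported here.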

Additional observations from a re-analysis of the deposited data

Results flagged for a closer look

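These genes stand here because the azacitidine effect differed between cell lines by a test of the difference itself, with edgeR's quasi-likelihood test, and they are the largest differences by the rule for named genes. All values are log2 differences ± standard error. The genes higher in PF382 than in TLOm1 were ADD2 (9.97 ± 2.10, adjusted p = 0.00913), GTSF1 (7.71 ± 1.57, adjusted p = 0.00664), SHROOM3 (6.04 ± 1.06, adjusted p = 0.00187), GPRASP1 (5.75 ± 1.23, adjusted p = 0.0176), LOC100506798 (5.59 ± 1.10, adjusted p = 0.017) and DTX1 (5.44 ± 0.68, adjusted p = 1.27e-04). Fitted values of genes with 0 to 3 counts in a group depend on the prior count and are no bound. ADD2 held 534 counts with azacitidine and 0 without in PF382, and 350 and 188 in TLOm1. SHROOM3 held 252 and 1 in PF382, and 154 and 47 in TLOm1. GPRASP1 held 0 counts with azacitidine and 6 without in TLOm1, all 6 with romidepsin alone, LOC100506798 0 and 4, and DTX1 5 and 30. GTSF1 was at 5.29 to 35.8 CPM with azacitidine, against 0.0873 and 0.0929 CPM without it in PF382, and at 79 to 103 CPM with azacitidine, against 80.2 and 98.7 CPM without it in TLOm1.

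The genes lower in PF382 than in TLOm1 were DNTT (-8.85 ± 1.42, adjusted p = 0.00269), GPRC5B (-7.93 ± 1.63, adjusted p = 0.00681), PRR5 (-7.77 ± 1.82, adjusted p = 0.0163), MLC1 (-7.54 ± 2.14, adjusted p = 0.0437), RAB20 (-7.43 ± 1.47, adjusted p = 0.00664) and ARL11 (-7.24 ± 1.41, adjusted p = 0.00519). Each held 0 counts without azacitidine in TLOm1, and there the libraries with azacitidine were at least 5.34-fold (DNTT), 21.8-fold (GPRC5B), 18.7-fold (PRR5), 14.6-fold (MLC1), 9.57-fold (RAB20) and 14-fold (ARL11) higher than the floor of 3 counts. In PF382 DNTT fell, and the other 5 did not pass the test of the azacitidine effect. PRR5 was at 8.71 to 28.9 CPM with azacitidine, against 9.1 and 18.2 CPM without it in PF382, and ARL11 at 11.5 to 14.5 CPM with azacitidine, against 10.2 and 10.4 CPM without it. Of these 12 calls against TLOm1, that of MLC1 ended in 7 of 8 fits with 1 PF382 library left out (adjusted p = 0.0505 to 0.142) and held without the combination at 250 nM. That of GTSF1 ended without the romidepsin-alone library (adjusted p = 0.0748) and without the untreated one (adjusted p = 0.0721). The calls of ADD2, LOC100506798 and PRR5 ended without the romidepsin-alone library (adjusted p = 0.217, 0.059 and 0.0601). DESeq2 did not call DNTT and LOC100506798, and limma-voom did not call GTSF1, GPRASP1 and MLC1, which was not called without a low-count filter either.

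Against the mean of the other 3 lines, of which HH and H9 had lower doses, the genes higher in PF382 were SHROOM3 (5.76 ± 0.95, adjusted p = 0.00162), TES (5.08 ± 1.14, adjusted p = 0.0185), RAPSN (5.05 ± 0.76, adjusted p = 5.50e-04), ISLR (4.65 ± 1.09, adjusted p = 0.0252), ADAMTS4 (4.46 ± 1.16, adjusted p = 0.0447) and CNTFR (4.42 ± 1.06, adjusted p = 0.0341). TES, a focal adhesion protein, was at 2.27 to 29 CPM with azacitidine, against 0.0929 and 0.48 CPM without it in PF382, and at 211 to 250.2 CPM with azacitidine, against 215 and 249 CPM without it in H9. RAPSN was at 4.56 to 12 CPM with azacitidine, against 0.175 and 0.232 CPM without it in PF382, and stayed at or under 1.67 CPM in every library of the other lines. The genes lower in PF382 were HKDC1 (-4.80 ± 1.09, adjusted p = 0.0214), C1orf51 (-4.57 ± 0.44, adjusted p = 1.44e-06), ARL11 (-3.76 ± 0.92, adjusted p = 0.0327), SPOCD1 (-3.58 ± 0.88, adjusted p = 0.0336), RAB20 (-3.42 ± 0.83, adjusted p = 0.035) and MKRN3 (-3.17 ± 0.69, adjusted p = 0.0164). HKDC1 and C1orf51 fell in PF382, and ARL11, SPOCD1, RAB20 and MKRN3 did not pass there. MKRN3, an imprinted gene, was at 26.8 to 33.4 CPM with azacitidine, against 32.1 and 32.5 CPM without it in PF382, and at 1.77 to 8.19 CPM with azacitidine, against 0.163 and 0.416 CPM without it in TLOm1. With 1 PF382 library left out, the calls of RAPSN and C1orf51 against the other lines held in each of 8 fits, and that of SHROOM3 ended without romidepsin alone (adjusted p = 0.0944). Those of HKDC1, TES, ISLR, ARL11 and MKRN3 ended without either library that had no azacitidine (adjusted p = 0.0589 to 0.266). Those of CNTFR, SPOCD1 and RAB20 ended in these 2 fits and without azacitidine alone at 250 or at 500 nM (adjusted p = 0.0513 to 0.239). That of ADAMTS4 ended in these 4 fits and without the combination at 250 or at 500 nM (adjusted p = 0.0529 to 0.467). Limma-voom did not call TES, RAB20 and SPOCD1, and ADAMTS4 was not called without a low-count filter. No library was compared with replicates of its own condition, since each condition had 1.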

How the results depend on the processing

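No called value of a named gene changed sign under another setting, and 1 of the 1483 genes called over all doses did in each fit without 1 of the libraries that had no azacitidine. Over all doses DESeq2 called 2062 genes (1410 shared), limma-voom 1767 (1233 shared) and the 8 PF382 libraries alone 1406 (913 shared). Calls fell to 497 with romidepsin not matched, 379 with romidepsin only and 76 without romidepsin only, the last 2 with 3 libraries against 1. DESeq2 called 19 genes for the romidepsin difference, 1408 for PF382 minus TLOm1 and 797 for PF382 minus the other lines. The cause of these differences was not tested. Leaving out 1 PF382 library at a time gave 116 to 1844 genes over all doses, 936 to 3211 for the slope, 335 to 1032 at 125 nM, 905 to 2710 at 250 nM, 2546 to 5495 at 500 nM, 267 to 890 for PF382 minus TLOm1, 61 to 461 for PF382 minus the other lines and 0 to 5 for the romidepsin difference. The side with more calls changed without romidepsin alone at 125 nM (203 higher, 212 lower) and for PF382 minus the other lines (19 and 42), and for PF382 minus TLOm1 without the untreated library (175 and 127), azacitidine alone at 125 nM (438 and 431) or the combination at 125 nM (471 and 419); over all doses 58 were higher and 58 lower without romidepsin alone. Where such a fit leaves an arm with 1 library, that library is assumed to vary like those of the other lines. Median-ratio size factors kept 174 of 176 named values on their side of the threshold, library totals 175, DESeq2 165, no low-count filter 160, limma-voom 143 and romidepsin not matched 118. The PF382 libraries alone kept 135 of 172, the romidepsin state with the drug 97 of 176 and that without it 68, and the 8 fits without a library 1141 of 1408. No paired analysis was possible because each condition had 1 library per line: all groups share replicate number 1 alone, and fewer than 2 shared numbers make no block. Matching on romidepsin state is part of the design. The planned comparison of promoter CpG content and its shorter window were not run: only 73.9% of raised, 75.5% of lowered and 73.0% of tested genes had a promoter window, under the 80% needed. Depth limits genes under the floor of 0.117 to 0.139 CPM.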
